A study of Ovis aries with 16 samples.

Results

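Solute carriers are membrane proteins that move sugars, amino acids, ions, metals, nucleotides and organic acids across the plasma membrane or the membranes of mitochondria, Golgi and lysosomes, and their SLC names group them into numbered families by sequence. In the lung they feed growing cells with glucose, glutamine and arginine, move chloride and bicarbonate across the epithelium, and clear signals such as serotonin and adenosine. Genes were chosen by name, as those whose symbol in the platform's probe table starts with SLC and a number, with SLC2A1, SLC4A1, SLC11A2, SLC22A5, SLC25A20, SLC34A2 and SLC40A1 left out. This gave 173 of the 9155 genes with 1 symbol, from 42 families. Of these, SLC4A1AP and SLC7A6OS carry the prefix without being carriers, the former being an adaptor protein, and were kept out of the family counts. Each gene was represented by 1 probe set, the brightest on average across the 16 arrays.

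RNA of peripheral lung was measured in 8 control lambs, from ewes with a sham operation, and in 8 shunt lambs, all at 3 days of age. In shunt lambs a Gore-tex graft, 8.0 mm in width and 2 mm in length, had joined the ascending aorta to the main pulmonary artery since fetal surgery 9 ± 6 days before term, as a lamb model of congenital heart disease. The labels give no genotype, strain or sex and describe no lamb singly. The series title places this age ahead of remodelling of the lung's vessels, and the comparison asks which transporter genes differed between the groups by then.

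Arrays correlated with each other at 0.979 to 0.995 over genes, and the least like the rest was control replicate 2, whose correlations averaged 0.982 against 0.989 to 0.991 elsewhere. Array medians were 7.158 ± 0.016 (SD, n = 8) in control and 7.135 ± 0.009 in shunt lambs (two-sided exact permutation p = 0.000777), and whether this has a part in small differences was not tested. Lung cell markers were present, with mean log2 levels from 9.46 to 9.93 over 9 alveolar type 2 markers and from 9.11 to 9.46 over 11 endothelial markers. Type 2 markers were lower in shunt for 9 of 9 genes (means 9.79 in control and 9.63 in shunt) and endothelial markers higher for 8 of 11 (9.20 and 9.30). Secretory and basal airway markers were lower for 6 of 6 (7.77 and 7.45), type 1 markers for 5 of 6 (11.22 and 11.06) and neutrophil markers for 7 of 7 (6.78 and 6.63), while smooth muscle markers were higher for 6 of 8 (9.93 and 10.10). Whole lung was measured, so fewer cells of a type and less RNA per cell cannot be told apart, and the part of these cell types in the values below was not tested.

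No SLC gene passed the threshold, while many small differences lay on the lower side. By limma, with Benjamini-Hochberg adjustment over all genes, 0 of 173 passed an adjusted p of 0.05, where 8 of all 9155 genes did (0.0874%), and the smallest adjusted p was 0.126, for SLC5A1. At an unadjusted p under 0.05 there were 4 higher (2.31%) and 14 lower in shunt (8.09%), beside 6.63% and 7.92% of all genes. In this fit the share of lower calls was near the background and that of higher calls below it. Without control replicate 8 there were 12 higher and 21 lower, beside 7.65% and 9.73% of all genes. The median difference, as log2 level in shunt minus control, was -0.05 over the SLC genes and -0.01 over all genes, and 58 of 173 (33.5%) were above 0 and 115 below, beside 44.9% and 55.1% of all genes. With each array centred on its median, 76 were above 0 (43.9%, all genes 53.6%), and the unadjusted p was under 0.05 for 9 higher and 9 lower genes (all genes 9.27% and 4.89%). In 0 of the 173 genes did the groups of 8 and 8 separate without overlap, as 14 of all genes did (0.153%).

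The measurements were precise enough to bound most of these differences. The median standard error was 0.07, and for 134 of the 173 genes (77.5%, all genes 72.2%) the 95% interval lay wholly between -0.3 and 0.3 on the log2 scale. A difference beyond 0.3 was measured for 4 genes (3.55% of all genes passed it), which were SLC44A4 (-0.54), SLC5A1 (-0.32) and SLC7A7 (-0.31) on the lower side and SLC6A15 (0.36) on the higher.

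**Figure D1:**
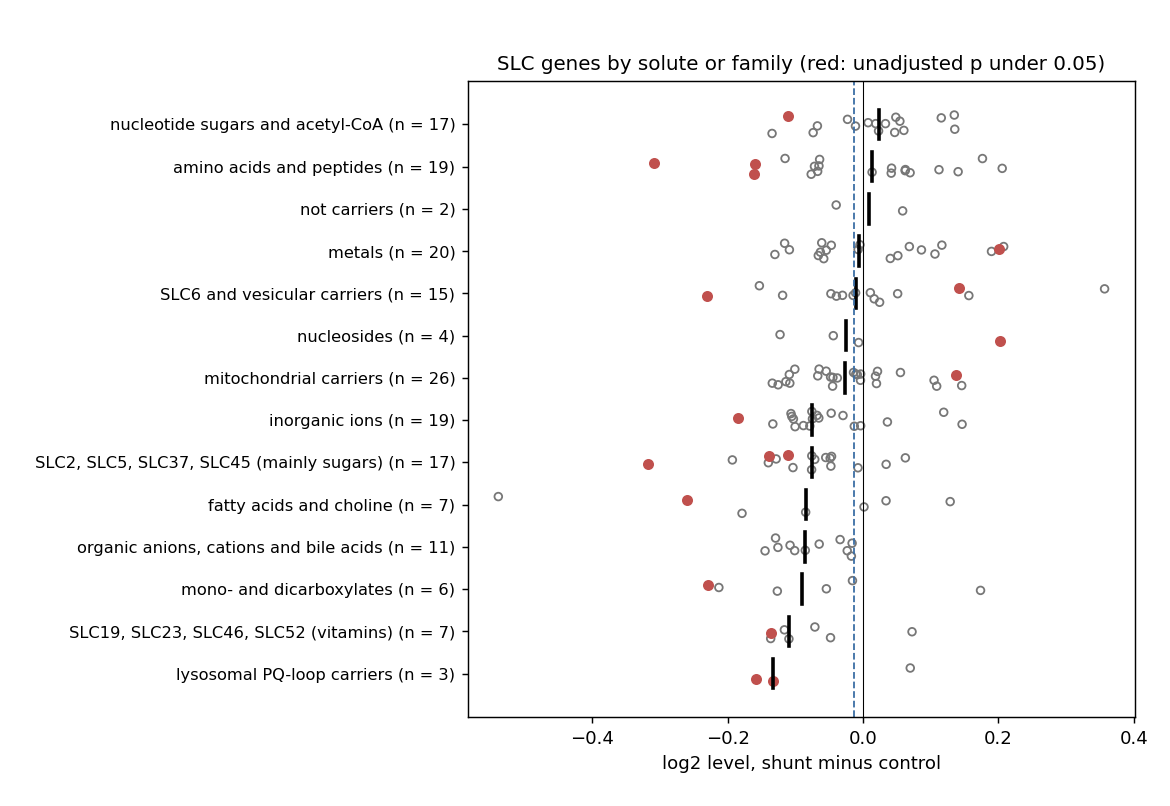
Difference between groups for each of the 173 SLC genes, as log2 level in shunt minus control on the horizontal axis, in rows by transported solute or family. Each circle is a gene, red marks an unadjusted p under 0.05, black bars are class medians and the dashed line is the median of all genes (-0.01). The 11 carriers of organic anions, cations and bile acids all lie below 0, and the largest lower differences are SLC44A4 and SLC5A1.

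The SLC2, SLC5, SLC37 and SLC45 families hold mainly sugar carriers, and also SLC5A5 for iodide and SLC5A6 for vitamins. Of their 17 genes, 15 were below 0, with a median of -0.08. An unadjusted p under 0.05 was found for 3, all lower (17.6%, beside 7.92% of all genes). These genes were dim, at a median percentile of 23.3. In the dimmest of 3 equal parts of all genes, 33.6% were above 0 and 10.5% were lower at that p. The median stayed below 0 under each rescaling, from -0.06 to -0.05. SLC5A1, the sodium-coupled glucose and galactose carrier that also serves glucose uptake from the airspace, ranged in control lambs from 6.55 over a median of 6.60 to 6.96 and in shunt lambs from 5.97 over 6.39 to 6.60. In 7 of 8 shunt lambs it was below the lowest control, control replicate 2 was the highest and shunt replicate 7 the lowest. The difference was -0.32 ± 0.08 (SE), or 1.25-fold lower, with an adjusted p of 0.126. Another, dimmer SLC5A1 probe set differed by -0.08, so the difference rests on 1 of 2 probe sets.

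The other sodium-coupled carriers of the SLC5 family differed by less than SLC5A1. SLC5A11, which takes up myo-inositol, differed by -0.11 ± 0.05 (adjusted p = 0.314) and lay under the mean of controls in 8 of 8 shunt lambs. SLC5A2, the glucose carrier known from the kidney tubule, and SLC5A5 differed by -0.08 each, SLC5A9 by -0.14 and SLC5A6 by 0.03. SLC5A9 was 8.04 in control replicate 2 and from 6.88 to 7.47 in the other controls, beside 6.89 to 7.23 in shunt lambs.

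Facilitated glucose carriers of the SLC2 family differed little. SLC2A3, a high-affinity glucose carrier, ranged from 6.18 to 7.03 (median 6.48) in control and from 6.09 to 6.80 (median 6.30) in shunt, a difference of -0.19 ± 0.12 (adjusted p = 0.443). SLC2A8, an intracellular glucose carrier, was at -0.10 ± 0.05, the insulin-responsive SLC2A4 at -0.05, and the fructose carrier SLC2A5, at 0.06, was the only 1 of 6 in the family above 0. The dimmer SLC2A5 probe sets were at -0.03 and -0.14. The SLC37 family holds carriers of sugar phosphates in the endoplasmic reticulum. SLC37A1 ranged from 6.39 to 6.72 in control and from 6.35 to 6.50 in shunt, where 5 of 8 controls exceeded every shunt lamb (-0.14 ± 0.05, adjusted p = 0.264). SLC37A4, the glucose-6-phosphate carrier, was at -0.13.

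Amino acid and peptide carriers were divided, with 10 of 19 above 0 and a median of 0.01. All 3 with an unadjusted p under 0.05 were lower (15.8%), beside 7.92% of all genes lower and 6.63% higher at that p. SLC7A7, the light chain of the carrier that exports cationic amino acids, whose inherited loss can cause alveolar proteinosis, ranged from 9.08 over 9.33 to 9.65 in control and from 8.49 over 9.06 to 9.49 in shunt. The groups overlapped, with 5 of 8 shunt lambs below the lowest control and 1 above the control mean. The difference was -0.31 ± 0.11 (1.24-fold lower, adjusted p = 0.245). Macrophages express this gene. Of 6 macrophage markers 2 were above 0, from C1QB at -0.21 to MSR1 at 0.50, with list means of 8.78 to 9.61 in control and 8.95 to 9.74 in shunt lambs, and their part in the SLC7A7 difference was not tested.

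SLC7A1, the arginine carrier that supplies nitric oxide synthesis in endothelial cells, ranged from 9.06 to 9.53 (median 9.31) in control and from 9.01 to 9.35 (median 9.13) in shunt, at -0.16 ± 0.07 (adjusted p = 0.317). Of 11 endothelial markers 8 were above 0 and 3 below, and their part in this difference was not tested. SLC1A4, a carrier of alanine, serine and cysteine, also differed by -0.16 ± 0.07 (adjusted p = 0.324). On the other side, the glutamate carrier SLC1A3 averaged 5.93 ± 0.29 (SD, n = 8) in control and 6.14 ± 0.12 in shunt, with 8 of 8 shunt lambs above the control mean and 6 of 8 controls below every shunt lamb. Its difference of 0.21 ± 0.10 had an adjusted p of 0.365, and its signal was dim (percentile 12.9 of the genes).

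The partners of the large neutral amino acid carrier did not differ beyond their spread. SLC7A5, the leucine-carrying light chain, was at 0.04 ± 0.09 and SLC3A2, the heavy chain it shares with SLC7A7, at 0.14 ± 0.11. In the SLC38 family of sodium-coupled glutamine and alanine carriers 4 of 5 were above 0, with SLC38A2, which is induced by amino acid shortage, at 11.73 ± 0.28 in control and 11.90 ± 0.18 in shunt (0.18 ± 0.11, adjusted p = 0.452) and its second probe set at 0.25. The glutamine carrier SLC1A5 was at 0.11, SLC38A3 at -0.07, the peptide carriers SLC15A1 and SLC15A4 at -0.08 and 0.07, and SLC43A1 and SLC43A2, which release large neutral amino acids, at -0.07 and -0.12.

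Of 15 carriers in the SLC6 and vesicular families 7 were above 0, with a median of -0.01 that turned to 0.01 after centring on array medians. The SLC6 family couples sodium and chloride to the uptake of neurotransmitters and amino acids. SLC6A8, the creatine carrier, ranged from 7.29 over 7.43 to 7.63 in control and from 6.96 over 7.27 to 7.35 in shunt. In 6 of 8 shunt lambs it was below every control, and shunt replicate 5 was the lowest. The difference was -0.23 ± 0.06 (1.17-fold lower, adjusted p = 0.172), and its second probe set was also lower, at -0.18 ± 0.07 (adjusted p = 0.291 over probe sets). The serotonin carrier SLC6A4, which clears serotonin in pulmonary vessels, ranged from 8.26 to 8.71 (median 8.47) in control and from 8.20 to 8.53 (median 8.35) in shunt, a difference of -0.12 ± 0.07 with a 95% interval of -0.26 to 0.02.

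The other members of the SLC6 family ran in both directions. SLC6A2, the noradrenaline carrier, was at 0.16, the taurine carrier SLC6A6 at -0.04, the proline carrier SLC6A20 at -0.15 and the glycine carrier SLC6A9 at -0.05. SLC6A14, a broad amino acid carrier of airway epithelium, was among the dimmest of all genes (percentile 0.546) and differed by 0.02. In the vesicular families, SLC17A6, which loads glutamate into synaptic vesicles, ranged from 5.45 to 5.80 in control and from 5.62 to 5.94 in shunt, above the control mean in 8 of 8 lambs (0.14 ± 0.06, adjusted p = 0.283). It too was dim, at percentile 9.23, where signal over background is unknown. The vesicular monoamine carrier SLC18A2 was at 0.02.

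**Figure D2:**
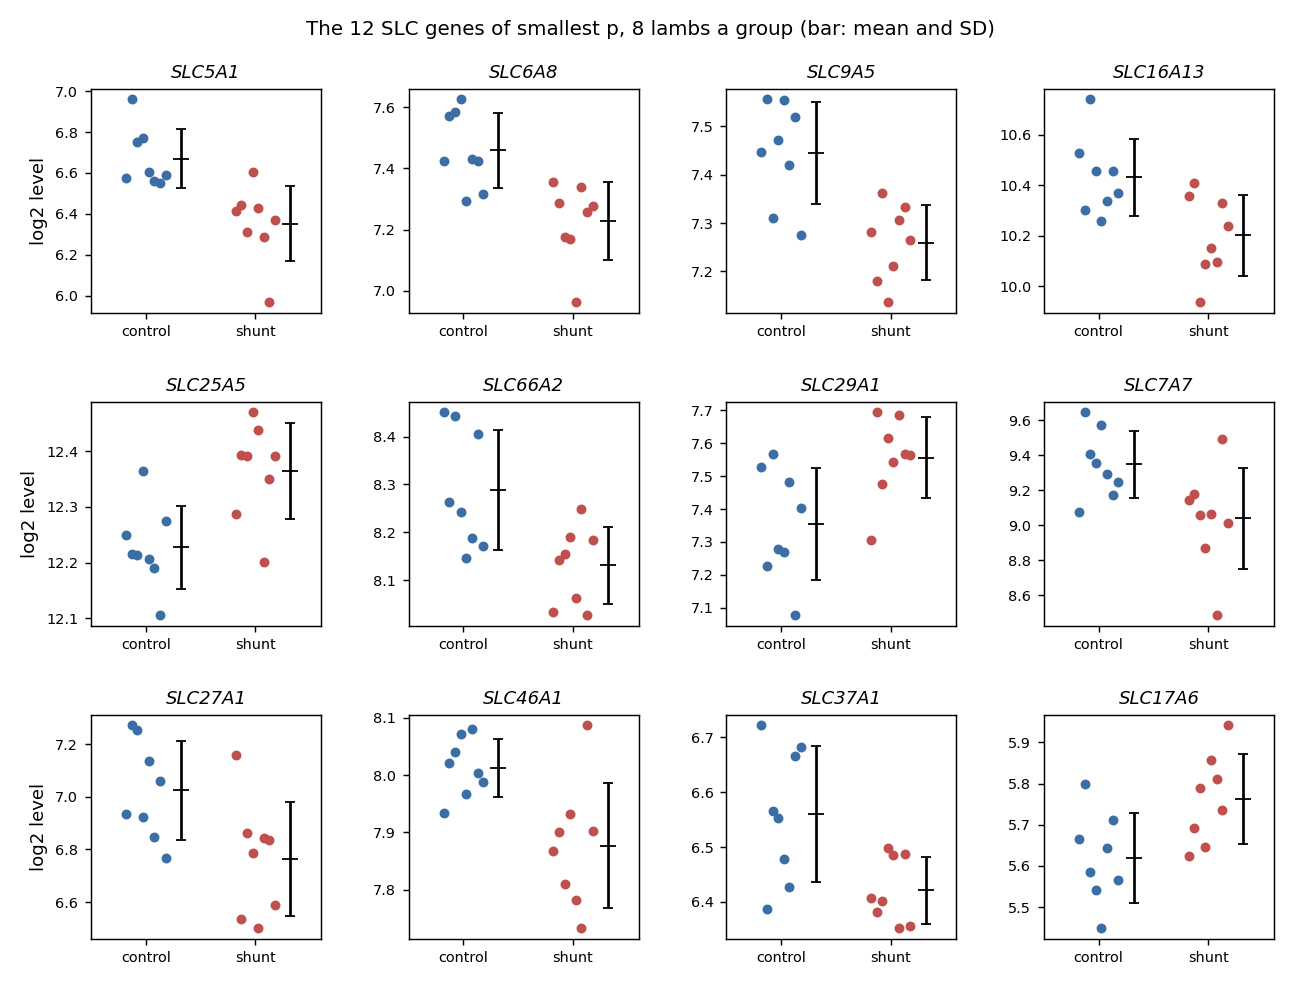
Log2 level in each lamb (points, 8 control in blue and 8 shunt in red) for the 12 SLC genes of smallest p, with mean and SD at the right of each group. In every panel the groups overlap. In SLC5A1 7 of 8 shunt lambs lie below the lowest control, and in SLC6A8 6 of 8 do while 6 of 8 controls lie above the highest shunt lamb.

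Among carriers of inorganic ions 16 of 19 were below 0, with a median of -0.07 that ranged from -0.05 to -0.04 under the rescalings and was -0.03 without control replicate 2. SLC9A5, a sodium-proton exchanger, ranged from 7.28 over 7.46 to 7.56 in control and from 7.14 over 7.27 to 7.36 in shunt. In 6 of 8 controls it exceeded every shunt lamb, and the difference was -0.19 ± 0.05 (1.14-fold lower, adjusted p = 0.182). The epithelial exchanger SLC9A3 was at -0.08. The chloride cotransporters of the SLC12 family were below 0 in 4 of 4 genes. SLC12A2, which loads epithelial cells with chloride for secretion of lung liquid, ranged widely, from 8.36 to 9.87 in control and from 8.46 to 9.42 in shunt, and its 95% interval of -0.52 to 0.31 was wide and held 0. Its difference turned above 0 when its highest control was left out. SLC12A3 was at -0.13 ± 0.07 (adjusted p = 0.373), SLC12A1 at -0.10 and SLC12A4 at -0.05. The SLC12A1 level was 5.52 in control replicate 2 and from 4.47 to 5.01 in the other controls, beside 4.51 to 4.93 in shunt lambs.

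Bicarbonate carriers of the SLC4 family were below 0 in 5 of 6, all by less than 0.1, with SLC4A7, a sodium-bicarbonate cotransporter of vascular smooth muscle, at 0.12 ± 0.08 and SLC4A4 at -0.07. The sodium-calcium exchanger SLC8A1 averaged 9.33 ± 0.33 (SD, n = 8) in control and 9.23 ± 0.13 in shunt (-0.11 ± 0.12 SE, adjusted p = 0.692). The phosphate carriers SLC20A1 and SLC20A2 were at 0.15 and -0.10.

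Of 6 carriers of lactate and other short acids 5 were below 0 (median -0.09), beside 55.1% of all genes. SLC16A13, a monocarboxylate carrier of the plasma membrane, ranged from 10.26 over 10.41 to 10.74 in control and from 9.94 over 10.19 to 10.41 in shunt, below the control mean in 8 of 8 lambs. The difference was -0.23 ± 0.08 (1.17-fold lower, adjusted p = 0.222), and its other 2 probe sets were lower as well, at -0.18 and -0.16. SLC16A1, the widespread lactate and pyruvate carrier, was more even in shunt than in control lambs, at 8.16 ± 0.14 and 8.37 ± 0.43 (SD, n = 8). Its 4 highest controls were above every shunt lamb and its 2 lowest below (-0.21 ± 0.14 SE, adjusted p = 0.494). SLC16A3, the lactate exporter of glycolytic cells, was at -0.02 ± 0.08, and this sign turned after centring on array medians (0.01). SLC13A2, a carrier of citrate and succinate, was at -0.13, and SLC13A4, which carries sulfate, at 0.17. The dimmer SLC13A4 probe sets were at -0.02 and -0.07.

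Mitochondrial carriers, the largest family with 26 genes, had a median of -0.03, beside -0.01 over all genes. Of the 26, 8 were above 0 (30.8%), beside 44.9% of all genes. SLC25A5, which exchanges ADP for ATP across the inner membrane, ranged from 12.11 over 12.22 to 12.36 in control and from 12.20 over 12.39 to 12.47 in shunt. In 5 of 8 shunt lambs it was above every control (0.14 ± 0.05, 1.10-fold, adjusted p = 0.242). Its second probe set differed by 0.03. The other ADP and ATP exchangers, SLC25A6 and SLC25A4, were at -0.04 and below 0.01 in size, and SLC25A6 turned to 0.01 with the mean of its probe sets. The phosphate carrier SLC25A3 averaged 12.43 ± 0.11 and 12.39 ± 0.15 (SD, n = 8). The iron importers SLC25A37 and SLC25A28 were at -0.13 each, and the peroxisomal carrier SLC25A17 at 0.15 ± 0.08 (adjusted p = 0.417). The citrate carrier SLC25A1 was at -0.07 and the oxoglutarate carrier SLC25A11 at -0.06.

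Metal carriers lay about evenly around 0, with 9 of 20 above it and a median of -0.01 that became 0.02 after centring on array medians. In the SLC39 family, which brings zinc and other metals into the cytosol, 7 of 13 were above 0. SLC39A6, a zinc importer of the plasma membrane, ranged from 9.30 over 9.62 to 9.95 in control and from 9.51 over 9.79 to 9.99 in shunt (0.20 ± 0.09, adjusted p = 0.302), above the control mean in 7 of 8 lambs. SLC39A14, which takes up zinc, iron and manganese, was at 0.19 ± 0.09 (adjusted p = 0.345, percentile 15.9), and SLC39A8, a carrier of zinc and manganese abundant in lung, at 0.04 ± 0.09. In the SLC30 family, which moves zinc out of the cytosol, SLC30A2 was at -0.12 ± 0.06 and SLC30A6 at 0.21 ± 0.12. The copper importer SLC31A1 was at -0.06, and SLC11A1, a metal exporter of phagosomes, also at -0.06.

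The SLC35 family, which holds the carriers of nucleotide sugars that feed glycosylation in the Golgi, was counted with the acetyl-CoA carrier SLC33A1. Their median was 0.02, with 11 of 17 above 0, and in SLC35 alone 10 of 16 were. The median of the 17 ran from 0.01 to 0.05 under the rescalings, with 10 to 13 above 0. An unadjusted p under 0.05 was found for 1 gene, which was lower (5.88%, beside 7.92% of all genes). This was SLC35C1, which brings GDP-fucose into the Golgi for selectin ligands, at 8.26 ± 0.07 (SD, n = 8) in control and 8.15 ± 0.10 in shunt (-0.11 ± 0.05 SE, adjusted p = 0.326). Its second, dimmer probe set differed by less than 0.01. SLC35F6 exceeded the mean of controls in 8 of 8 shunt lambs (0.14 ± 0.07, adjusted p = 0.345), and SLC33A1, the acetyl-CoA carrier of the endoplasmic reticulum, in 7 of 8 (0.13 ± 0.07, adjusted p = 0.393).

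Of 4 nucleoside carriers 1 was above 0, with a median of -0.03 that turned to 0.01 after cyclic loess. SLC29A1, the equilibrative carrier that takes up adenosine and so ends its signal, ranged from 7.08 over 7.34 to 7.57 in control and from 7.31 over 7.57 to 7.69 in shunt. In 4 of 8 controls it was below every shunt lamb (0.20 ± 0.07, 1.15-fold, adjusted p = 0.245), and among the lambs with a shunt only 1 was below the control mean. The equilibrative carriers SLC29A2 and SLC29A3 were at -0.04 and -0.01, and the sodium-coupled SLC28A3 at -0.12. The other SLC28A3 probe sets were at 0.09 and -0.06.

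Carriers of organic anions, organic cations and bile acids, best known from liver, kidney and gut, were below 0 in 11 of 11, with a median of -0.09, and none had an unadjusted p under 0.05. They were dim, at a median percentile of 9.43, where the median of all genes was also below 0. After quantile normalization again, centring or cyclic loess 2 of 11 were above 0, and with the dim probe sets left out the median was -0.02. Averaged over the class and set against the control mean, control replicate 2 was at 0.19. The other controls ran from -0.07 to 0.01 and the shunt lambs from -0.10 to -0.02. SLC22A6 was at -0.13 ± 0.08, SLC22A8 at -0.09 ± 0.08 and the bile acid carrier SLC10A1 at -0.14. In control replicate 2 SLC10A1 was 6.17 and SLC22A8 5.82, while the other controls ran from 5.49 to 5.64 and from 5.13 to 5.53.

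Of 7 fatty acid and choline carriers 3 were above 0 (median -0.08), and among them was the SLC gene with the largest difference and spread. SLC44A4, a carrier of choline and thiamine pyrophosphate in epithelial cells, was 9.36 ± 0.45 (SD, n = 8) in control, ranging from 8.80 over 9.34 to 9.93, and 8.82 ± 0.83 in shunt, ranging from 7.90 over 8.88 to 10.34. Shunt replicate 1 had the highest value of all 16 lambs, and shunt replicates 3, 5 and 8 the lowest, at 7.98, 8.10 and 7.90. The difference of -0.54 ± 0.30 (SE) had an interval from -1.16 to 0.08 and an adjusted p of 0.403. The mean of 6 secretory and basal airway markers averaged 7.77 in control and 7.45 in shunt lambs. Among the shunt lambs it was also highest in replicate 1 (7.90) and lowest in replicates 3, 5 and 8 (7.18, 7.17 and 7.18). The high value of replicate 1 was not particular to airway markers, while the lowest lambs differed between lists. Replicate 1 was the highest shunt lamb for type 2 (9.88), type 1 (11.24), ciliated (9.30), neutrophil (6.85) and B cell markers (6.79) too. The lowest was replicate 3 for type 2 (9.46), 8 for type 1 (10.97) and ciliated (7.94), 6 for neutrophil (6.51) and 4 for B cell markers (6.52). The part of any of these cell types in the difference was not tested.

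SLC27A1, which brings long-chain fatty acids into cells, ranged from 6.77 over 7.00 to 7.27 in control and from 6.50 over 6.81 to 7.16 in shunt (-0.26 ± 0.10, 1.20-fold lower, adjusted p = 0.245), below the control mean in 7 of 8 lambs. Its second probe set was at -0.09. SLC27A2 was at -0.18, SLC27A4 at 0.03 and the choline carrier SLC44A2, of endothelium and blood cells, at 0.13 ± 0.07 (adjusted p = 0.416).

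The SLC19, SLC23, SLC46 and SLC52 families, which hold carriers of folate, vitamin C and riboflavin, were below 0 in 6 of 7 genes (median -0.11). SLC5A6, above 0, was counted with its own family. The median stayed between -0.09 and -0.08 under the rescalings. SLC46A1, the proton-coupled folate carrier, was narrow in control, from 7.93 over 8.01 to 8.08, and ranged from 7.73 over 7.88 to 8.09 in shunt. In 7 of 8 shunt lambs it was below every control, while the remaining lamb was above every control. The difference was -0.14 ± 0.05 (adjusted p = 0.245), and its other 2 probe sets were lower too, at -0.26 and -0.08. The reduced folate carrier SLC19A1 was at -0.12, the vitamin C carrier SLC23A2 at -0.11, and the riboflavin carriers SLC52A2 and SLC52A3 at -0.07 and -0.14.

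In the SLC66 family of lysosomal and related carriers, SLC66A2 ranged from 8.15 over 8.25 to 8.45 in control and from 8.03 over 8.15 to 8.25 in shunt, below the control mean in 8 of 8 lambs (-0.16 ± 0.06, adjusted p = 0.245). SLC66A1, which exports cationic amino acids from lysosomes, was at -0.13 and SLC66A3 at 0.07.

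**Figure D3:**
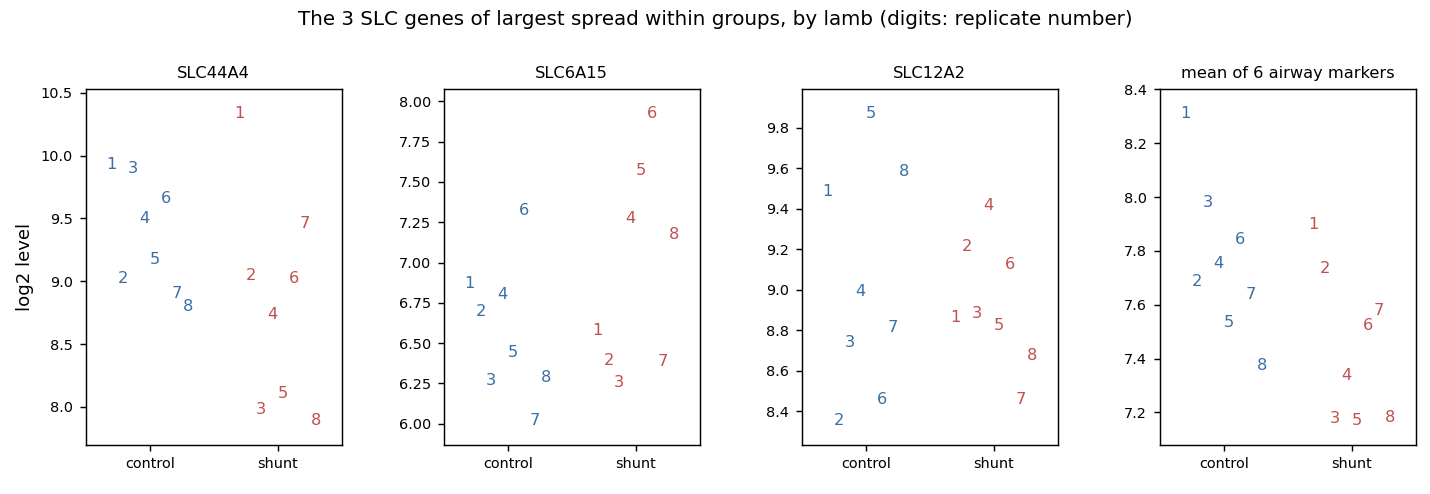
Log2 level by lamb (digits are replicate numbers, control in blue, shunt in red) of the 3 SLC genes with the largest spread within groups, and the mean of 6 secretory and basal airway markers. Shunt replicate 1 is highest in SLC44A4 and shunt replicates 3, 5 and 8 are lowest, while SLC6A15 and SLC12A2 order the lambs in other ways.

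The lambs differed most from each other in SLC44A4, SLC6A15 and SLC12A2. SLC6A15, a neutral amino acid carrier best known from neurons, ranged from 6.02 to 7.32 in control and from 6.26 to 7.93 in shunt (0.36 ± 0.24, adjusted p = 0.486). Shunt replicates 4, 5, 6 and 8 were between 7.18 and 7.93 and the other 4 between 6.26 and 6.58, and control replicate 6, at 7.32, was the only control above 7. In 117 of the 173 SLC genes (67.6%) the control lambs varied more than the shunt lambs, as in 67.3% of all genes. Without control replicate 2 this was so for 97 (56.1%) and 56.7% of all genes.

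The median difference was below 0 among dim genes and above 0 among bright ones, both for SLC genes and for all genes. Split by level into 3 equal parts, the dimmest genes held 83 SLC genes, where the SLC median was -0.05 and that of all genes -0.04. Among those of middle level, with 62, it was -0.05 against -0.02, and 30.6% were above 0 against 43.4% of all genes. Among the brightest, with 28, the medians were 0.02 and 0.02. Lower calls at an unadjusted p under 0.05 did not move alike. From dimmest to brightest they were 6.02%, 9.68% and 10.7% of SLC genes (5, 6 and 3 genes), beside 10.5%, 8.52% and 4.75% of all genes. SLC genes were dimmer than most, with a median percentile of 35.1 of all genes, and signal ranks probe sets and not amounts of RNA.

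**Figure D4:**
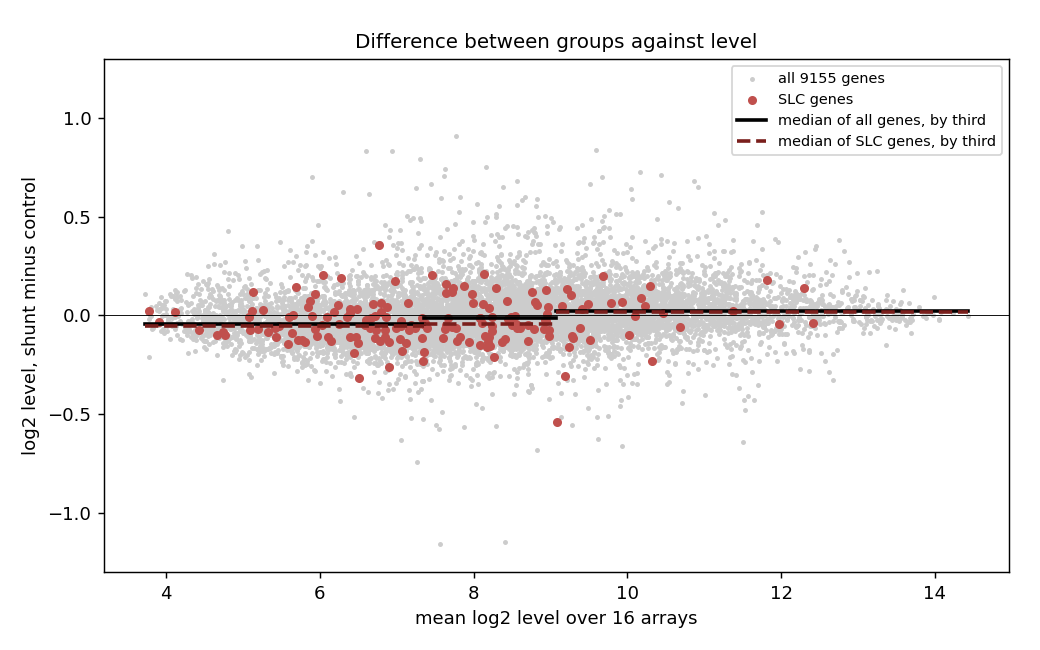
Difference between groups (log2 level in shunt minus control) against mean log2 level over 16 arrays, for all 9155 genes (grey) and the 173 SLC genes (red), with medians in 3 equal parts by level. The medians of both climb from below 0 among the dimmest genes (-0.05 for SLC genes, -0.04 for all) to 0.02 among the brightest.

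Where a gene had more than 1 probe set, these mostly had the same sign. For 49 SLC genes there were 71 further probe sets, and 59 of them (83.1%) had the sign of the one that represented the gene, beside 64.9% among all genes. From lamb to lamb they followed each other weakly, with a median correlation within groups of 0.14 over 16 arrays. Over 24016 probe sets 0 of the 244 SLC probe sets passed by limma, where 17 of all probe sets did. The smallest adjusted p of an SLC probe set was 0.139. At an unadjusted p under 0.05 there were 4 higher and 20 lower SLC probe sets. The share over all probe sets was not counted, so these counts have no background beside them.

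Transport genes outside the SLC names were measured in the same fit, and 0 of them passed. Of 7 subunits and regulators of the sodium-potassium pump, whose sodium gradient drives many carriers, 1 was above 0 (median -0.03), the subunit gene ATP1B3. It averaged 12.27 ± 0.15 (SD, n = 8) in control and 12.61 ± 0.15 in shunt (0.34 ± 0.07 SE, adjusted p = 0.0837), and ATP1B1 was at -0.01. Of 14 ABC transporters 3 were above 0 (median -0.07), and an unadjusted p under 0.05 was found for ABCG2 (0.25), ABCA4 (-0.24) and ABCB8 (-0.20). That made 7.14% higher and 14.3% lower, beside 6.63% and 7.92% of all genes. Of 26 carriers with other names 9 were above 0 (median -0.07). At an unadjusted p under 0.05, ANKH, which releases pyrophosphate and ATP from cells (0.37 ± 0.11, adjusted p = 0.192), and SLCO2B1 (0.26) were higher. UCP3 (-1.16 ± 0.26, adjusted p = 0.0936), SLCO4A1 (-0.25) and RHCG (-0.11) were lower at that p. That made 7.69% of the 26 higher and 11.5% lower, beside 6.63% and 7.92% of all genes. The prostaglandin carrier SLCO2A1 was at 0.12 ± 0.08. Among 7 partner proteins 2 were above 0 (median -0.05). The carbonic anhydrase gene CA2 was at -0.27 ± 0.10 (adjusted p = 0.245), and BSG, the chaperone of lactate carriers, was at -0.08. The 3 subunits of the epithelial sodium channel were below 0, with SCNN1A at -0.20, SCNN1B at -0.22 and SCNN1G at -0.04.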

How the data were processed

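Lung RNA of 16 lambs, 8 control and 8 shunt, was hybridized to a bovine Affymetrix array, 1 array a lamb. The deposited values are on the log2 scale, 1 for each probe set on each array, and the submitters' processing notes name RMA, with no version. RMA subtracts background and normalizes arrays by quantiles. Sheep RNA on bovine probes can lower a signal where sequences differ. Detection calls and scan dates were not used here, so signal over background and batches are unknown, and the number of arrays limits the precision. The labels describe no lamb individually, so p-values measure the spread between these arrays.

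Of 24128 probe sets, 112 manufacturer's controls were left out. Of the remaining 24016, 13292 had 1 gene symbol in the platform annotation, 86 several and 10638 none. Of the 173 SLC symbols, 169 were in a table of sheep genes. Positions and sequences were not used here, since probes and table belong to different species. Genes were fitted with limma 3.58.1 in R 4.3.3 (lmFit and eBayes, no covariate, two-sided, Benjamini-Hochberg over 9155 genes), checked on simulated data. Differences are given with the standard error of the fit.

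Members, solute classes and lists were chosen with earlier results of these data known. Named genes were the 12 of smallest p per direction, 2 per family of 4 or more, 18 fixed genes where measured, and the 3 brightest and 3 most variable; other members are given by their difference, and some of them were chosen after their values were seen. Alternatives were a replicate block, a filter leaving out the dimmest 25% of probe sets, 3 rescalings (quantile normalization again, centring on array medians, cyclic loess), array weights, a trended and robust prior, other probe set rules, a threshold of 0.10 and each array left out in turn. Python 3.11.15 with matplotlib 3.10.9 drew the plots.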

Additional observations from a re-analysis of the deposited data

Results flagged for a closer look

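Among 104 sets of 8 values (52 named SLC genes in both groups), 5 held a lamb whose gap to its neighbour was large for the range of its group, where chance gives about 5. SLC6A8 in shunt replicate 5 was 6.96, with the next at 7.17 and the highest shunt lamb at 7.35. SLC2A3 in shunt replicate 6 was 6.80, with the next at 6.39. SLC8A1 in shunt replicate 7 was 9.51, with the next at 9.30. SLC39A12 in control replicate 2 was 4.74, with the next at 5.02. SLC27A6 in control replicate 7 was 4.47, with the next at 4.73. The last 2 genes were among the dimmest of the arrays.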

How the results depend on the processing

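No SLC gene passed an adjusted p of 0.05 in any of the 25 alternative fits (limma), or at a threshold of 0.10 in the reported fit. Of all genes, from 0 (replicate block) to 64 (0.699%, without shunt replicate 1) passed 0.05 in these fits. The smallest adjusted p was 0.0820, for SLC6A8 with array weights. The count at an unadjusted p under 0.05 was 4 higher and 14 lower as reported, beside 6.63% and 7.92% of all genes. It was 7 higher after quantile normalization again (all genes 6.15%), 7 after cyclic loess (7.10%) and 2 with the most variable probe set (6.27%). After centring on array medians it was 9 higher and 9 lower (all genes 9.27% and 4.89%). With 1 array left out the count ran from 3 to 12 higher and from 9 to 21 lower. Higher were 12 without control replicate 8 (all genes 7.65%) and 7 without shunt replicate 7 (7.25%). Lower were 9 without shunt replicate 5 (all genes 6.19%) and 21 without control replicate 8 (9.73%). The median over the SLC genes was -0.023 after centring and ran from -0.05 to -0.03 with 1 array left out. The SLC39 median was 0.0074 with the most variable probe set. The median of organic anion, cation and bile acid carriers was -0.023 without the dim probe sets, and that of inorganic ion carriers ran from -0.087 to -0.030 with 1 array left out. The medians of amino acid, SLC6 and vesicular, metal, nucleoside, SLC1 and SLC30 carriers changed sign in some fits and have no direction. SLC5A1 was at -0.08 with the most variable probe set (adjusted p = 0.771).

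Among the 52 named genes, 46 kept their sign in all fits and 6 did not. SLC16A3 was 0.0075 after centring, and ran from -0.064 to 0.022 with 1 array left out, above 0 when this was control replicate 1, control 3 or shunt 6. SLC6A14 was -0.0025 under array weights and ran from -0.0010 (control replicate 7 left out) to 0.038. SLC25A6 was 0.011 with the mean of probe sets. With 1 array left out, SLC12A2 ran from -0.20 to 0.014 (control replicate 5), SLC39A8 from -0.016 (control replicate 7) to 0.10 and SLC7A5 from -0.0083 (shunt replicate 8) to 0.092.

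With the replicate number as a block, 0 SLC genes passed and the smallest adjusted p was 0.162. The labels give no pairing of same-numbered lambs. Of 8 such pairs 2 had deviations correlated above 0.1 (range -0.27 to 0.19), which cannot show whether they shared more than a number. Signal over background is unknown, which limits the dim genes most.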
